A study of Rattus norvegicus with 4 samples.

Results

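Venous and activated endothelial barcodes were chosen by a rule on 17 genes in 4 rat muscle libraries, and 522 of 14233 kept barcodes met it. A barcode, the tag that stands for 1 droplet, was kept with at least 500 unique molecular identifiers (UMIs, counted transcripts), at least 200 genes and at most 20% of UMIs from mitochondrial genes. It was then held to be endothelial where Fabp4, Aqp1, Timp4, Slc28a2, Tcf15, Meox2, Gpihbp1, Rgcc, Vwf, Selp and Plvap together held at least 1% of its UMIs, which is called the endothelial gate below. A member had at least 3 UMIs over Selp, Sele, Vcam1 and Plvap and at most 2 over the arterial genes Gja5, Gja4, Sox17 and Sema3g. The other 6685 barcodes past the endothelial gate serve as the comparison, and they include arterial, capillary and unassigned endothelium.

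Each of the 4 libraries held total cells of 1 enzymatically digested muscle from rats aged 12 months, read from the 3' ends of transcripts in droplets. TA stands for tibialis anterior, from the lower leg, and EOM for extraocular muscles, which turn the eyeball. For each muscle 1 library was labelled wild-type (WT) and 1 DMD in the field for disease state, while the titles of all 4 samples say the opposite. The names "labelled WT" and "labelled DMD" follow that field, and reading the titles instead would exchange them. The labels give neither strain, allele, sex nor the number of rats in a library, and they name no treatment. With 1 library per muscle and label, no difference between labels or muscles has a replicate, and library, rat and label cannot be told apart.

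Postcapillary venules and veins are the vessels through which leukocytes leave the blood. Their endothelium keeps P-selectin (Selp) and von Willebrand factor (Vwf) in Weibel-Palade bodies, and inflammatory cytokines acting through NF-kB induce E-selectin (Sele) and VCAM-1 (Vcam1), which capture and arrest rolling leukocytes. Plvap forms the diaphragms of caveolae and fenestrae and is abundant in venous and leaky endothelium, while capillaries of muscle are marked by lipid-handling genes such as Gpihbp1.

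The members came mostly from 1 library. TA labelled DMD held 493 of them among 4590 endothelial barcodes, which is 10.7% (95% exact Clopper-Pearson interval 9.86 to 11.7). TA labelled WT held 13 of 1533 (0.848%, 0.452 to 1.45), EOM labelled WT 5 of 516 (0.969%, 0.315 to 2.25) and EOM labelled DMD 11 of 568 (1.94%, 0.971 to 3.44). The interval of TA labelled DMD lay above the other 3, which overlapped each other. Of all kept barcodes, members made up 0.613% and 5.77% in TA (labelled WT, then DMD) and 0.396% and 0.478% in EOM. All intervals cover counting error only, not differences between rats or digestions.

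Depth touches these shares, since a rule on 3 UMIs is easier to meet in a deeper barcode. Members had medians of 3935, 2231, 3595 and 2342 UMIs in TA labelled WT, TA labelled DMD, EOM labelled WT and EOM labelled DMD, beside 2329.5, 1083, 2204 and 2622 in the other endothelial barcodes. TA labelled DMD had the shallowest endothelial barcodes and the highest share. With every barcode of at least 1000 UMIs thinned to 1000, the shares were 0.885%, 13.0%, 0.617% and 2.18% in the same order. With barcodes kept only if they carried a UMI of a pan-endothelial gene and at most 2 UMIs of other cell types' markers, called the purity filter below, they were 0.844%, 7.77%, 1.09% and 2%.

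**Figure D1:**
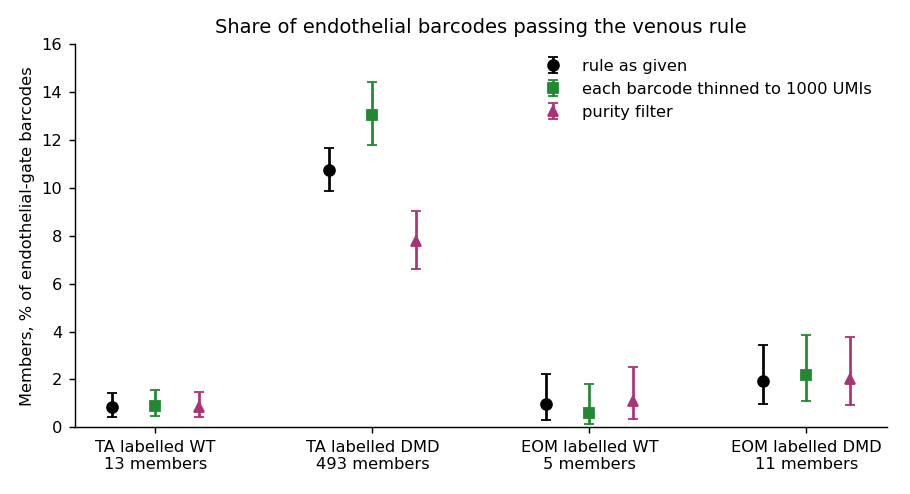
Members as a percent of the barcodes past the endothelial gate in each library (points, with exact 95% Clopper-Pearson intervals as bars), by the rule as given, after thinning each barcode to 1000 UMIs and after the purity filter. TA labelled DMD stands at 10.7%, 13.0% and 7.77%, and no other library passes 2.18%.

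At the edge of the rule, 100 members of TA labelled DMD had exactly 3 UMIs over the 4 venous and activation genes, and 169 barcodes of that library stayed outside with 2. A further 228 barcodes there met the venous threshold but carried 3 or more arterial UMIs. In TA labelled WT, EOM labelled WT and EOM labelled DMD the barcodes so left out numbered 4, 6 and 15. The endothelial gate left out 96 barcodes of TA labelled DMD with 3 or more UMIs of the 4 genes, and 4, 35 and 93 in the other libraries in the same order. Libraries shared between 1 and 10 barcode sequences pairwise, and none of them was a member in both. A doublet caller marked 20 members of TA labelled DMD and 0 elsewhere. They were kept, and without all marked barcodes the share there was 11.3%.

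The endothelial label was checked against markers that the rule did not use. Cdh5, Cldn5, Egfl7, Esam, Tie1, Kdr, Ecscr, Tek and Emcn, a pan-endothelial list, gave at least 3 UMIs in all 13, 5 and 11 members of TA labelled WT, EOM labelled WT and EOM labelled DMD, and in 391 of 493 members of TA labelled DMD. Another 19 members of TA labelled DMD had none. The summed pan-endothelial level was 5511, 2769, 8111 and 7053 counts per 1000000 UMIs (CPM) in members of TA labelled WT, TA labelled DMD, EOM labelled WT and EOM labelled DMD. It was 716, 698, 328 and 237 CPM in barcodes under the endothelial gate, so members stood above those in each library. In the other endothelial barcodes it was 7847, 4614, 7655 and 6721 CPM, above the members in both TA libraries and below them in both EOM libraries.

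Markers of other cell types moved with the library. Fibroblast and fibro-adipogenic progenitor genes reached 3 or more UMIs in 202 of 493 members of TA labelled DMD and 10 or more in 108, and mural genes reached 3 or more in 143. In the other libraries 0 of 13, 0 of 5 and 2 of 11 members reached 3 fibroblast UMIs. The summed fibroblast level in members was 2629 CPM in TA labelled DMD, beside 2525 CPM in its other endothelial barcodes, and 46.3, 221 and 385 CPM in TA labelled WT, EOM labelled WT and EOM labelled DMD. Pdgfra, Lum and Pi16 had no UMI in members of those 3 libraries. Macrophage genes reached 3 UMIs in 30 members of TA labelled DMD, Schwann cell genes in 16 and lymphatic genes, among them Prox1 and Lyve1, in 12, while T and NK cell genes had no UMI in any member. The purity filter left 12, 154, 5 and 9 members in TA labelled WT, TA labelled DMD, EOM labelled WT and EOM labelled DMD. Values with that filter are given beside some results below, and where none is given the filter may have moved the result. The part of these other transcripts in the remaining results was not tested.

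**Figure D2:**
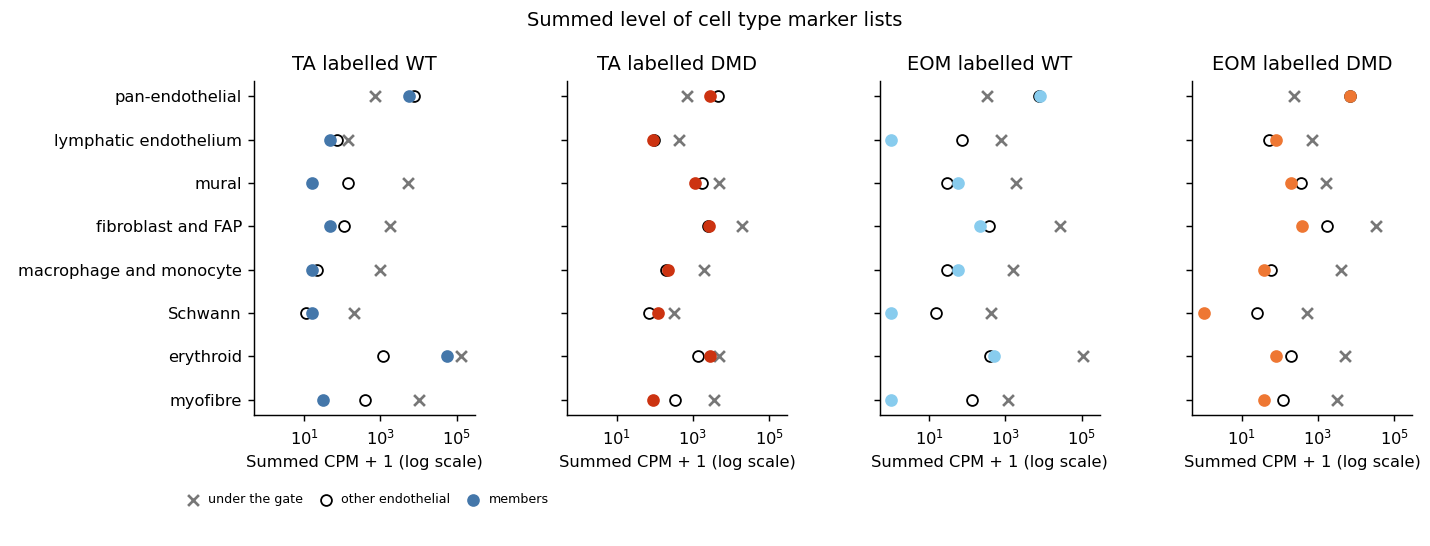
Summed level of each marker list in CPM plus 1 (log scale), for members (filled), other endothelial barcodes (open) and barcodes under the endothelial gate (crosses), with 1 panel per library. Members of TA labelled DMD carry 2629 CPM of fibroblast and 1115 CPM of mural markers, and the erythroid level of TA labelled WT members is raised by 1 barcode.

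Haemoglobin transcripts set 1 barcode apart. In TA labelled WT a single member held 57.7% of its UMIs in haemoglobin genes, which put 13.0% of the pooled member UMIs of that library into those genes. In TA labelled DMD 19 members had over 1% haemoglobin UMIs, and in EOM none had.

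The rule selected on Selp, Sele, Vcam1 and Plvap, so their levels are a description. In members of TA labelled WT, TA labelled DMD, EOM labelled WT and EOM labelled DMD, Plvap stood at 3164, 1900, 1324 and 1734 CPM. Vcam1 stood at 216, 403, 607 and 771 CPM. Selp stood at 170, 394, 0 and 77.1 CPM, where the 0 of EOM labelled WT comes from 18124 UMIs and allows up to 166 CPM. Sele stood at 15.4 CPM in TA labelled WT (1 UMI), 306 in TA labelled DMD (424 UMIs), 276 in EOM labelled WT (5 UMIs in 1 barcode) and 0 in EOM labelled DMD, where 25946 UMIs allow up to 116 CPM. By UMIs, Plvap was the most abundant of the 4 in every library. Outside TA labelled DMD, E-selectin transcripts were found in 1 member of TA labelled WT and 1 of EOM labelled WT, and P-selectin in 6 of TA labelled WT and 2 of EOM labelled DMD. Vwf, which is in the endothelial gate but not in the venous threshold, stood at 895, 472, 3917 and 4047 CPM in the same order and was highest in EOM. This was not particular to members, as 21.5%, 20.8%, 56.8% and 46.9% of the other endothelial barcodes had a Vwf UMI. A UMI counts the 3' end of 1 transcript, whatever its length.

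Within TA labelled DMD the members were a mixture of combinations. Plvap had a UMI in 471 of 493 members (95.5%), Selp in 244 (49.5%), Vcam1 in 235 (47.7%) and Sele in 207 (42.0%). Members with 1, 2, 3 and 4 of the 4 genes numbered 104, 178, 147 and 64. Plvap had the most UMIs of the 4 in 372 members, Vcam1 in 31, Selp in 28 and Sele in 13, with 49 ties, and 96 members had Plvap alone. At least 1 selectin was present in 336 members, both in 115, and a selectin together with Vcam1 in 174. In barcodes of that library under the endothelial gate that carried 10 or more fibroblast UMIs, which serve as a background of free RNA for the selectins and Plvap, Selp had a UMI in 1.13%, Sele in 0.959%, Plvap in 5.02% and Vcam1, which fibroblasts can express, in 11.7%. The median depth was 1314 UMIs in those barcodes and 2231 in members.

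**Figure D3:**
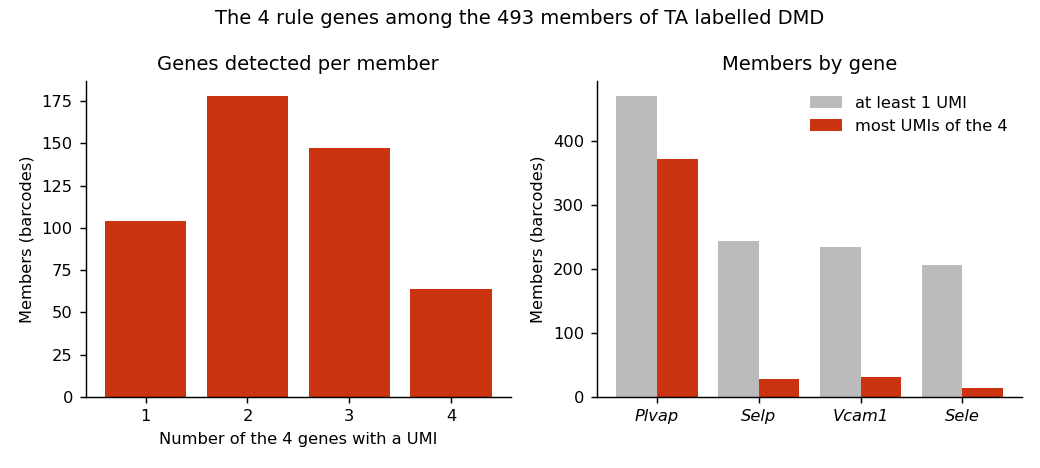
Left, number of members of TA labelled DMD with 1, 2, 3 or 4 of Plvap, Selp, Vcam1 and Sele detected (104, 178, 147 and 64). Right, members with at least 1 UMI of each gene (grey) and members in which that gene has the most UMIs of the 4 (red), where Plvap leads with 471 and 372.

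In the other libraries the members were fewer and led by Plvap or Vcam1. All 13 members of TA labelled WT had Plvap, 6 had Selp, 6 Vcam1 and 1 Sele. Of the 5 members of EOM labelled WT, 4 had Plvap, 4 Vcam1, 1 Sele and 0 Selp. Of the 11 members of EOM labelled DMD, 10 had Plvap, 5 Vcam1, 2 Selp and 0 Sele. None of the members of these 3 libraries had all 4 genes.

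The start regions of Vcam1 and Sele are shown because both genes are textbook NF-kB targets and their UMIs helped to choose the members. The 250 bases before the start of each gene come from RefSeq on build GRCr8 and were searched on both strands for GGGNNTTCC and for the same letters with 1 more N in the middle, common forms of the NF-kB motif. Matches are in capitals, the sequences run 5′ to 3′ on the gene's strand, Vcam1 lies on the minus strand at chr2:206742784-206743033 and Sele on the plus strand at chr13:78936264-78936513.
Vcam1: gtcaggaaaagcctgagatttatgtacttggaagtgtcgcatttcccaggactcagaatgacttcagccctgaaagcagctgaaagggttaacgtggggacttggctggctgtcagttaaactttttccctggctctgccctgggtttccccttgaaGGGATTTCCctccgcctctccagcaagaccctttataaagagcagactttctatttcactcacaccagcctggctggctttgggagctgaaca
Sele: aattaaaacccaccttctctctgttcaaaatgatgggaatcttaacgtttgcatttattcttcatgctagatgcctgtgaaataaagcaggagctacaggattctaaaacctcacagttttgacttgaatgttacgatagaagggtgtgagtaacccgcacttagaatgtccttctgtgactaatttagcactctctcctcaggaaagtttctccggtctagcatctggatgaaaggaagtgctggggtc
Vcam1 had 1 match, GGGATTTCC, whose first base lies 93 bases before the start, and Sele had none in this window. The venous gene Lrg1 had 1 match on the opposite strand, 200 bases before its start. Plvap, Icam1 and Il33 had none, and 2797 of 33469 RefSeq promoter windows of the same length (8.36%) held a match. No other window and no other form of the motif was searched, so a window without a match may hold another form. A match of letters is not evidence of binding.

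Members were then set against the other endothelial barcodes within each library, to describe what the chosen barcodes share beyond the 17 genes of the rule. UMIs were summed per library and set, and the 8 sums were tested with edgeR's quasi-likelihood test with library as a block and Benjamini-Hochberg adjustment over 8090 genes. The calls are not independent of the choice of barcodes, since a gene that is expressed together with a gene of the rule had to follow it. At an adjusted p under 0.05, 109 genes (1.35%) were higher in members and 132 (1.63%) were lower, and the median log2 fold change of all genes tested was −0.15. DESeq2 called 104 higher and 61 lower. After the purity filter 134 were higher and 150 lower, and 192 of these 284 calls had the same direction and a call without the filter. The 3 libraries other than TA labelled DMD gave 99 higher and 114 lower genes when fitted alone. Of the 213 genes called in them, 158 were called in the same direction with all 4 libraries. Without TA labelled WT the counts were 63 and 60, and without EOM labelled WT 91 and 78.

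The named genes are the 12 with the largest and the 12 with the smallest log2 fold change among called genes with a symbol and at least 20 member UMIs, and Lbp and Prss23 lead the higher ones. Lbp, which encodes lipopolysaccharide-binding protein, stood at 232, 61.3, 331 and 116 CPM in members of TA labelled WT, TA labelled DMD, EOM labelled WT and EOM labelled DMD and at 1.32, 11.7, 1.54 and 13.9 CPM in the other endothelial barcodes. Its log2 fold change was 4.002 (SE 0.45, edgeR quasi-likelihood adjusted p = 1.09e-15), and 5.38 after the purity filter. Members were above the other barcodes in all 4 libraries, on 15, 85, 6 and 3 member UMIs of Lbp, with the smallest ratio in TA labelled DMD. Prss23, a serine protease gene, stood at 448, 270, 607 and 694 CPM against 2.63, 94.6, 6.94 and 81.2, a log2 fold change of 3.77 (SE 0.39, edgeR adjusted p = 3.58e-18). In EOM labelled DMD it had 18 member UMIs, of which 6 (289 CPM) stayed after the purity filter. Barcodes under the gate held 93.7, 210, 130.5 and 197 CPM of Prss23.

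Receptors of inflammatory and metabolic signals were among them. Cysltr1, the receptor of cysteinyl leukotrienes, stood at 170, 72.1, 276 and 231 CPM in members, in the same order of libraries, against 1.84, 22.2, 7.72 and 9.69 in the other barcodes. Lepr, the leptin receptor, stood at 154, 43.3, 221 and 77.1 CPM against 0.790, 10.0, 21.6 and 14.5. Both were higher in members of every library, by 3.46 (SE 0.45) and 3.06 (SE 0.46) on the log2 scale. These member levels rest on 11, 100, 5 and 6 UMIs of Cysltr1 and on 10, 60, 4 and 2 of Lepr. Slco2a1, which encodes the prostaglandin transporter, had 6, 118, 1 and 3 member UMIs (92.6, 85.1, 55.2 and 116 CPM) against 0, 17.3, 1.54 and 10.9 CPM, with a log2 fold change of 3.20 (SE 0.51).

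Matrix and adhesion genes formed another part of the list. Eln, which encodes the elastin precursor, stood at 401, 184, 828 and 732 CPM in members against 17.6, 77.7, 24.7 and 36.4 in the other endothelial barcodes. It was higher by 3.34 on the log2 scale (SE 0.36, edgeR adjusted p = 2.52e-17) and was highest in EOM. Abi3bp, a matrix protein gene, stood at 216, 212, 166 and 193 CPM against 1.84, 67.0, 12.3 and 29.1, and Itgb4, the laminin-binding integrin beta 4, at 232, 319, 110 and 154 CPM against 2.90, 104, 21.6 and 20.6. The member levels of Abi3bp rest on 14, 294, 3 and 5 UMIs, and after the purity filter EOM labelled DMD kept 1 UMI. The other endothelial barcodes of TA labelled DMD had more of it than those of any other library. Barcodes under the gate held 38.2, 322, 212 and 468 CPM of Abi3bp, and the part of free RNA in its member levels was not tested.

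The other 4 named genes were Cytl1, Ehd4, Rasa4 and Cp. Cytl1, which encodes a secreted protein, stood at 972, 962, 883 and 463 CPM in members and 18.7, 268, 22.4 and 72.7 CPM in the others. Ehd4, an endocytic recycling gene, stood at 1111, 596, 607 and 809 CPM against 48.5, 227, 31.6 and 95.1. Rasa4, which encodes a Ras GTPase-activating protein, stood at 401, 474, 441 and 617 CPM against 8.16, 128, 9.26 and 43.0. Cp, which encodes the copper carrier ceruloplasmin, stood at 216, 59.1, 55.2 and 270 CPM against 2.37, 26.4, 7.72 and 19.99. Barcodes under the gate held 20.3, 124, 69.1 and 86.7 CPM of Cp, and its member level in EOM labelled WT rests on 1 UMI. All 12 were called with TA labelled DMD left out, and the 11 that could be tested after the purity filter, all but Slco2a1, were called there too.

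**Figure D4:**
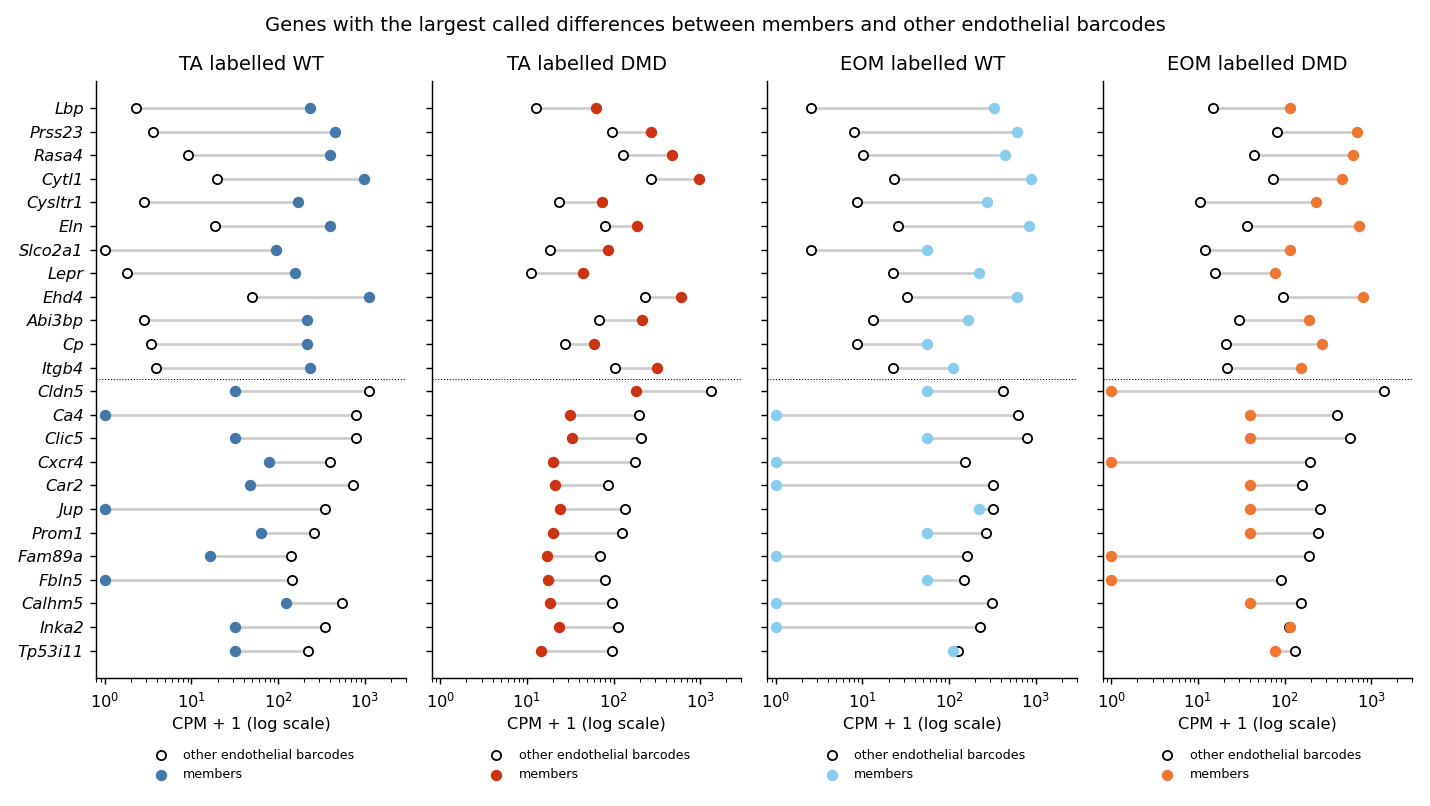
Levels in CPM plus 1 (log scale) of the 12 genes with the largest and the 12 with the smallest called log2 fold change among genes with a symbol and at least 20 member UMIs, above and below the dotted line, in members (filled) and in other endothelial barcodes (open) of each library. A point at 1 is a count of 0, and the gap between the symbols is narrower in TA labelled DMD for the upper 12 genes.

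The lower genes were led by a tight junction gene. Cldn5, which encodes claudin-5, stood at 30.9, 182, 55.2 and 0 CPM in members of TA labelled WT, TA labelled DMD, EOM labelled WT and EOM labelled DMD, against 1132, 1344, 414 and 1421 CPM in the other endothelial barcodes. The log2 fold change was −3.90 (SE 0.46, edgeR quasi-likelihood adjusted p = 1.52e-14). The difference had the same direction in all 4 libraries, and 0 UMIs in EOM labelled DMD allow up to 116 CPM. After the purity filter the log2 fold change was −3.68, and in barcodes of 1000 to 4000 UMIs it was −3.93. Cldn5 is itself among the pan-endothelial genes of the purity filter, so the filtered value is not independent of that choice. The cadherin gene Cdh5 and Esam, other junction genes of endothelium, did not pass the test, with log2 fold changes of −0.66 and −0.04.

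Carbonic anhydrase and channel genes of capillaries were also lower. Ca4, a membrane-bound carbonic anhydrase of capillary endothelium, had 0, 42, 0 and 1 member UMIs (0, 30.3, 0 and 38.5 CPM) against 785, 194, 629 and 397 CPM, and Car2, the cytosolic form, stood at 46.3, 20.2, 0 and 38.5 CPM against 733, 84.2, 321 and 156. Clic5, which encodes an intracellular chloride channel protein, stood at 30.9, 32.5, 55.2 and 38.5 CPM against 793, 208, 792 and 562. Their log2 fold changes were −3.70 (SE 0.46), −2.79 (SE 0.46) and −3.46 (SE 0.44). Members were below the other barcodes in every library for all 3.

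The other 8 lower genes were Cxcr4, Jup, Prom1, Fam89a, Fbln5, Calhm5, Inka2 and Tp53i11, with log2 fold changes between −3.08 and −2.33. Cxcr4, the CXCL12 receptor of arterial and tip endothelium, stood at 77.2, 18.8, 0 and 0 CPM in members against 395, 175, 151 and 193. Jup, which encodes the junction protein plakoglobin, stood at 0, 23.1, 221 and 38.5 CPM against 344, 136, 318 and 255. Inka2 was the exception in direction, with 3 UMIs (116 CPM) against 110 CPM in EOM labelled DMD, and Tp53i11 lost its call without TA labelled DMD (edgeR adjusted p = 0.129).

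Venous identity genes outside the rule were higher or did not pass the test. Of 12 listed, 9 were tested, 3 were higher and 0 lower, with a median log2 fold change of 0.83 beside −0.15 for all genes. Over all 8090 genes tested 1.35% were called higher and 1.63% lower, the background for the counts of this and every list below. The lists are not separate, as Il1r1 stands in the venous and NF-kB lists and Kdr in the capillary and angiogenesis lists. Nr2f2, the transcription factor COUP-TFII that specifies veins, stood at 124, 142, 276 and 308 CPM in members and 8.16, 93.3, 10.0 and 43.0 CPM in the other endothelial barcodes, with a log2 fold change of 2.05 (SE 0.41, edgeR adjusted p = 5.7e-05). Il1r1, the interleukin-1 receptor, stood at 92.6, 44.0, 55.2 and 116 CPM against 6.06, 18.9, 8.49 and 12.7 (log2 fold change 2.03). Tmem252 stood at 556, 360, 883 and 578 CPM against 68.7, 182, 96.4 and 170 (log2 fold change 1.93).

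Members were higher for these 3 genes in every library. Barcodes under the gate also carried Nr2f2, at 127, 174, 42.4 and 70.5 CPM. After the purity filter, members of TA labelled DMD held 148 CPM of Nr2f2 and other barcodes 22.1 CPM. The venous receptor tyrosine kinase gene Ephb4 (log2 fold change 0.83), the endomucin gene Emcn (0.60) and Lrg1 (0.56) did not pass the test. Lrg1 stood at 1158, 790, 993 and 1156 CPM in members against 482, 554, 625 and 666, above the other barcodes in each library.

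**Figure D5:**
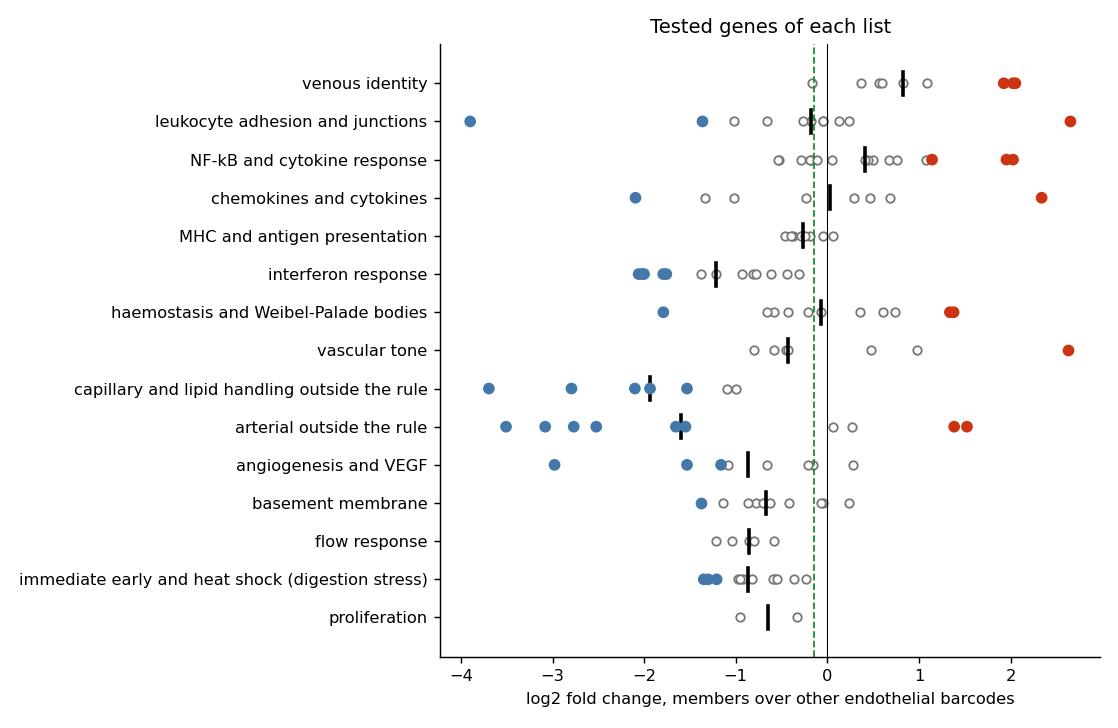
Log2 fold change of members over other endothelial barcodes for the tested genes of each list, 1 point per gene, filled where called (red higher, blue lower), with the list median as a black bar and the median of all genes tested, −0.15, as a dashed line. Called genes of the capillary and interferon lists lie on the lower side, and those of the venous and NF-kB lists on the higher side.

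Genes of leukocyte adhesion did not move as a group. Of 13 listed, 11 were tested, 1 was higher and 2 lower, with a median of −0.17. Icam1, the integrin ligand that arrests leukocytes and is induced together with Vcam1, was the higher one, at 92.6, 286, 993 and 501 CPM in members against 5.003, 99.9, 56.3 and 57.6 CPM. Its log2 fold change was 2.65 (SE 0.37, edgeR adjusted p = 5.18e-10), and its members were above the other barcodes in all 4 libraries. Cldn5 and Podxl, which encodes the sialomucin podocalyxin, were the lower ones, with Podxl at −1.36. Icam2 (−0.17), Cd99 (−0.26), Jam2 (−0.05) and Esam stayed within 0.3 of 0 on the log2 scale and did not pass the test.

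Of the NF-kB and cytokine response list 17 of 19 genes were tested, 3 were higher and 0 lower, with a median of 0.41. Il6st, the gp130 subunit shared by receptors of the interleukin-6 family, stood at 648, 658, 276 and 578 CPM in members against 76.9, 252, 89.5 and 101 CPM (log2 fold change 1.96, SE 0.37). Tnfrsf1a, the tumour necrosis factor receptor 1, stood at 201, 136, 662 and 308 CPM against 87.2, 99.1, 100.3 and 95.7 (log2 fold change 1.14), and Il1r1 was the third. The 3 called genes thus encode receptor chains. The inhibitor gene Nfkbia, itself a target of NF-kB, did not pass the test, at 1189, 1816, 1545 and 1773 CPM against 1270, 1304, 1538 and 1818.

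Among chemokines and cytokines, 8 of 14 were tested, 1 was higher and 1 lower, with a median of 0.03. Il33, an alarmin stored in endothelial nuclei, stood at 756, 549, 552 and 809 CPM in members against 42.9, 262, 71.0 and 142 CPM (log2 fold change 2.34, SE 0.37, edgeR adjusted p = 8.27e-08). Cxcl12, a chemokine of arterial and capillary endothelium, stood at 1142, 364, 1324 and 2120 CPM against 2961, 1687, 6750 and 5693 (log2 fold change −2.10, SE 0.37). Both kept their direction in all 4 libraries.

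Inflammatory chemokines were detected among members mostly in TA labelled DMD, and Ccl2 and Ccl7 were too sparse elsewhere to be tested over the libraries. Ccl2 had 724 UMIs there (522 CPM, against 405.5 in the other endothelial barcodes and 638 in barcodes under the gate), and 0 UMIs in members of TA labelled WT, EOM labelled WT and EOM labelled DMD, which allow up to 46.3, 166 and 116 CPM. Ccl7 had 1125 UMIs (811 CPM against 338 and 299.9) and likewise 0 in the other libraries. Cxcl1 had 572 UMIs (412 CPM against 198 and 336), 1 in TA labelled WT and 1 in EOM labelled DMD. Barcodes under the gate carry much of these chemokines, and members passing the purity filter had less of them than all members, at 157.5 CPM of Ccl2, 454 of Ccl7 and 233 of Cxcl1. The other barcodes passing the same filter held 43.1, 117.5 and 107 CPM. The part of free RNA or of other cell types in these levels was not tested.

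Interferon response genes were lower or did not pass the test. All 13 listed genes were tested, 0 were higher and 5 lower, with a median of −1.22, and all 13 had a negative log2 fold change. Of all 8090 genes tested, 132 (1.63%) were called lower and 5143 had a negative log2 fold change. All tested genes were also negative in the capillary list (7), the immediate early and heat shock list (12), the flow response list (5) and the proliferation list (2). Oas1a, an antiviral 2'-5' oligoadenylate synthetase, stood at 92.6, 98.8, 110 and 38.5 CPM in members against 272, 321, 389 and 435 CPM (log2 fold change −2.002, SE 0.41). Irf7, a transcription factor of the interferon response, stood at 77.2, 42.5, 110 and 0 CPM against 205, 112, 391 and 242 (−1.79, SE 0.41). The antiviral GTPase genes Mx1 (−2.06) and Mx2 (−2.03) and Rsad2 (−1.76) were the other 3. DESeq2 called 3 lower, Oas1a, Mx2 and Irf7. Apart from TA labelled DMD these values rest on 0 to 6 member UMIs per gene and library. Isg15 stood at 185, 94.5, 55.2 and 116 CPM against 319, 155, 330 and 385 and did not pass the test.

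Of 8 tested genes of antigen presentation 0 were called by edgeR or DESeq2, and 0 had an unadjusted edgeR p under 0.05, with a median of −0.27. B2m, the light chain of class I molecules, had 674, 10463, 197 and 223 member UMIs and a log2 fold change of −0.40 (SE 0.37). The class II invariant chain gene Cd74 had 1, 157, 0 and 0 member UMIs, and after the purity filter the members of TA labelled DMD held 18.2 CPM of it in place of 113.

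Capillary and lipid-handling genes outside the rule were lower or did not pass the test. Of 9 listed, 7 were tested, 0 were higher and 5 lower, with a median of −1.94, and DESeq2 called 4 lower, all of these but Btnl9. Besides Ca4 and Car2 these were Lpl, Btnl9 and Kdr. Lpl, lipoprotein lipase, stood at 92.6, 182, 386 and 308 CPM in members against 959, 514, 862 and 1017 CPM (log2 fold change −2.10, SE 0.38), and barcodes under the gate held 509 to 1416 CPM of it. Kdr, the VEGF receptor 2, stood at 371, 217, 221 and 578 CPM against 1376, 404, 1062 and 885 (−1.53, SE 0.37). The capillary genes inside the gate, Gpihbp1, Rgcc, Tcf15 and Timp4, are part of the rule and were not tested. Rgcc stood at 170, 157, 497 and 578 CPM in members against 3253, 845, 3570 and 1826.

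Arterial genes outside the rule split in both directions, with 10 of 13 tested, 2 higher, 6 lower and a median of −1.60. The rule caps 4 arterial genes, and barcodes above that cap are among the comparison, so lower arterial genes were built in. Unc5b, Dll4, Efnb2, Alpl, Fbln5 and Cxcr4 were the lower ones. Dll4, the Notch ligand of arterial and tip cells, stood at 201, 58.4, 276 and 116 CPM in members against 479, 208, 420 and 496 (log2 fold change −1.65). Vegfc, the lymphatic growth factor, was higher at 201, 52.6, 497 and 116 CPM against 24.2, 39.2, 66.4 and 83.6 (1.39). Mgp, the matrix Gla protein that inhibits calcification, was called higher (1.52) but not in every library. It stood at 479, 918, 110 and 2929 CPM in members against 36.3, 1217, 73.3 and 452, with the opposite direction in TA labelled DMD. Barcodes under the gate held 2027 to 7746 CPM of Mgp, and DESeq2 called neither Vegfc nor Mgp.

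Angiogenesis genes had 0 higher and 3 lower of 8 tested, with a median of −0.87, where 1.63% of all genes tested were called lower. Esm1, a tip cell proteoglycan, had 1, 10, 0 and 0 member UMIs (15.4, 7.21, 0 and 0 CPM) against 542, 24.9, 211 and 112 CPM (log2 fold change −2.98, SE 0.51). Flt1, the VEGF receptor 1, was lower at 756, 549, 1600 and 1272 CPM against 1977, 1019, 1889 and 2640 (−1.16), and Kdr was the third. Of the basement membrane list 10 of 11 genes were tested and 1, the collagen IV gene Col4a1, was lower (−1.38). The list's median was −0.66. Flow response genes gave 0 calls of 5 tested with edgeR and with DESeq2, and 4 had an unadjusted edgeR p under 0.05, all lower. Klf2, the transcription factor induced by laminar flow, stood at 293, 123, 441 and 116 CPM against 785, 171, 957 and 139 and did not pass the test. Proliferation genes gave 0 calls of 2 tested with either tool, and 1 had an unadjusted edgeR p under 0.05.

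Haemostasis genes outside the rule had 2 higher and 1 lower of 11 tested, with a median of −0.07. Rab27a, the small GTPase that matures Weibel-Palade bodies, stood at 201, 106, 166 and 77.1 CPM against 42.9, 53.8, 37.8 and 48.5 (log2 fold change 1.34). Entpd1, the ectonucleotidase CD39 that degrades ATP and ADP, stood at 46.3, 115, 110 and 270 CPM against 12.9, 50.5, 45.5 and 53.3 (1.38). Plat, tissue plasminogen activator, was lower at 92.6, 124.7, 386 and 231 CPM against 332, 361, 690 and 995 (−1.79). The thrombomodulin gene Thbd did not pass the test (−0.58).

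Of 7 tested genes of vascular tone, edgeR called Ptgs1, and DESeq2 called it and the adrenomedullin receptor gene Calcrl, both higher. It encodes cyclooxygenase 1 and stood at 139, 56.2, 221 and 116 CPM in members against 10.5, 20.1, 4.63 and 10.3 (log2 fold change 2.63, SE 0.46, edgeR adjusted p = 2.07e-06). Nos3, the endothelial nitric oxide synthase, did not pass the test (−0.81). Immediate early and heat shock genes, which enzymatic digestion can induce, had 0 higher and 3 lower of 12 tested, Egr1 (−1.35), Jun (−1.21) and the heat shock gene Hspa1b (−1.30), whose reads may be shared with its near-identical neighbour. DESeq2 called Jun alone.

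TA labelled DMD held enough members to split them. The 207 members with a Sele UMI had a median of 2381 UMIs and the 286 without one 2123. In members with Sele, Ccl7 stood at 1126 CPM and in those without at 533, a ratio of 2.12 (95% counting interval 1.87 to 2.40), and Ccl2 at 716 and 350.5 CPM, a ratio of 2.04 (1.75 to 2.39). Cxcl10, a chemokine for T cells, stood at 178 and 102 CPM (1.75, 1.30 to 2.37) and Nfkbia at 2163 and 1509 CPM (1.43, 1.32 to 1.55). Class II genes went the other way, with Cd74 at 23.1 and 193 CPM and RT1-Db1 at 9.22 and 106 CPM. Among the 154 members that passed the purity filter, 61 with Sele and 93 without, the ratio was 2.81 (1.99 to 4.001) for Ccl7, 4.75 (2.48 to 9.69) for Ccl2 and 1.55 (1.31 to 1.84) for Nfkbia. Cd74 then had 3 UMIs in each group, so its difference was not seen after the filter. At least 3 fibroblast UMIs were present in 93 of the 207 and 109 of the 286. These splits lie within 1 library, so the intervals treat UMIs as independent and there is no test.

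The 96 members with Plvap alone (median 1902 UMIs) were set beside the 397 with a selectin or Vcam1 (median 2307 UMIs). They held 937 CPM of Cxcl12 beside 256, a ratio of 3.66 (3.05 to 4.38), 350.3 of Cldn5 beside 150 (2.34, 1.76 to 3.07) and 314 of Podxl beside 130 (2.41, 1.79 to 3.22). They also held more leukocyte transcripts, with 30 S100a9 UMIs beside 3, 13 C1qa UMIs beside 1 and Cd74 at 282 beside 81.4 CPM, and less of the mural gene Acta2 (104.6 beside 282 CPM) and the fibroblast gene Dcn (237 beside 469 CPM). The part of these transcripts in the ratios was not tested. They held less Icam1, at 63.7 beside 327 CPM, and less Cxcl1, at 72.8 beside 476 CPM. After the purity filter, 45 members had Plvap alone and 109 had a selectin or Vcam1. Cxcl12 was then 4.73-fold higher in the former (3.63 to 6.202) and Plat 3.86-fold higher (2.27 to 6.67), while Atf3 stood at 450.1 beside 1828 CPM and Il33 at 214 beside 612 CPM. The members with Plvap alone that passed the filter held 825 CPM of the capillary gene Gpihbp1 beside 165 (5.01, 3.37 to 7.57). Kdr stood at 471.5 beside 224 CPM in them, while Ca4 (42.9 beside 46.4) and Lpl (139 beside 190) were not higher. They held less Nr2f2 (75.0 beside 177 CPM) and Vwf (386 beside 739), though more of the listed venous gene Aplnr (429 beside 228). Whether they are capillary cells was not tested. Cxcl12, Cldn5, Podxl and Plat, higher in members with Plvap alone, were all called lower in members as a whole. The split uses genes of the rule and has no test.

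Differences between labels and muscles within the members rest on 13, 493, 5 and 11 barcodes. Gene by gene contrasts of 1 library against 1 were not made, as TA labelled DMD alone reached 30 members. An additive fit of muscle and label over the 4 member sums with edgeR's quasi-likelihood test, which leaves 1 residual degree of freedom, tested 776 genes. The label term called 8 (1.03%) and the muscle term 10 (1.29%) at an adjusted p under 0.05, and 5 of each were haemoglobin genes. Without the barcodes of over 1% haemoglobin UMIs, a step chosen after seeing the data, 4 and 5 genes were called.

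A gene entered this fit if it reached about 220 CPM (10 UMIs at the median member sum) in 2 or more of the 4 libraries, so a gene at a low level in 1 group had to be high in the other to be tested. Higher in the libraries labelled DMD were Fgl2, Igfbp5 and Igfbp4, each of which passed the filter only through those libraries. Fgl2, a fibrinogen-like secreted protein, had 3, 1751, 0 and 13 UMIs (46.3, 1263, 0 and 501 CPM) in members of TA labelled WT, TA labelled DMD, EOM labelled WT and EOM labelled DMD, a log2 difference of 4.93. The other endothelial barcodes showed 18.7, 977, 12.3 and 210 CPM, and members passing the purity filter 49.3, 1553, 0 and 577. Igfbp4 stood at 46.3, 384, 0 and 347 CPM in members and at 50.3, 334, 29.3 and 84.8 in the other endothelial barcodes. Igfbp5 stood at 15.4, 531, 55.2 and 347 CPM in members and at 14.7, 532, 20.1 and 398 in the others, so the libraries labelled DMD were higher in both sets. These binding proteins of insulin-like growth factors were at 154 to 771 and 1013 to 5758 CPM in barcodes under the gate. Members that passed the purity filter had 142 CPM of Igfbp5 in TA labelled DMD and 0 UMIs of it in EOM labelled DMD.

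Slco1a4, Spryd3, Mcf2l and Agrn were among the genes higher in EOM, and each passed the filter only through the EOM libraries. Slco1a4, an organic anion transporter, stood at 61.7, 10.1, 276 and 347 CPM in members, a log2 difference of 3.91, and at 2.37, 5.05, 44.0 and 55.7 CPM in the other endothelial barcodes. Mcf2l stood at 92.6, 98.8, 441 and 771 CPM in members, a log2 difference of 2.57. Agrn, which encodes the basement membrane proteoglycan agrin, stood at 108, 51.2, 276 and 501 CPM (2.44). Both EOM libraries were above both TA libraries for each of these 3 genes in members and in the other endothelial barcodes, where Agrn stood at 72.1, 54.0, 130 and 94.5 CPM and Mcf2l at 244, 193.5, 263 and 252. In EOM the member levels of these genes rest on 4 to 20 UMIs per gene and library.

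Whether the difference between members and other barcodes itself varied was tested with interaction terms in the 8 sums, an analysis added after seeing the data. By label, 20 of 8090 genes (0.247%) were called, and all had a smaller member difference in the libraries labelled DMD. By muscle, 16 genes (0.198%) were called, all with a lower member difference in EOM, and 5 of them were haemoglobin genes. The aggrecanase gene Adamts4, chosen after its values were seen, was among the former, at 278, 138, 0 and 38.5 CPM in members against 7.64, 176, 2.31 and 40.0 CPM in the other barcodes, a difference of −5.23 on the log2 scale. It was higher in members of TA labelled WT and not in those of TA labelled DMD. In barcodes of 1000 to 4000 UMIs 1 gene was called by label and 3 by muscle, all 3 in the opposite direction.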

How the data were processed

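Per the file headers, the authors counted unique molecular identifiers with Cell Ranger 4.0.0. The submitters' processing notes name the build rn6. The deposited values are whole-number counts per gene and barcode over 25399 genes, not normalized by the authors. The annotation was not given in the sources used here, nor was the cell calling. The members, gene lists and tests were chosen with earlier results of these data known. Groups follow the disease state field.

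Counts were summed per library and barcode set and given as CPM of the set's total. Members and other endothelial barcodes were compared with edgeR 4.0.16 in R 4.3.3 (filterByExpr, TMM scaling, quasi-likelihood test, library block, Benjamini-Hochberg over all genes outside the rule). SE is the log2 fold change over the root of F. DESeq2 1.42.0, other scalings, filters, depth windows and gates were alternatives. Named genes were the 12 highest and 12 lowest called, with a symbol, at least 20 member UMIs and the same direction in libraries of 30 or more members, besides all list genes. Doublets were scored with scrublet in scanpy 1.11.5 and kept, with their removal as an alternative. Poisson and Clopper-Pearson intervals are at 95%. Member sums held 64785, 1386915, 18124 and 25946 UMIs for TA labelled WT, TA labelled DMD, EOM labelled WT and EOM labelled DMD, so 1 UMI outside TA labelled DMD is worth 15.4 to 55.2 CPM. The edgeR code was tested on simulated data. 1 gene called by the muscle term is not reported here.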

Additional observations from a re-analysis of the deposited data

Results flagged for a closer look

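For 6 of the 12 genes with the largest positive member difference, that difference was smaller in the libraries labelled DMD by an edgeR quasi-likelihood interaction test. Over all genes that test called 20 of 8090 (0.247%). The 12 genes were chosen for a large difference in the same sums, so the count of 6 is not independent of their choice. The log2 difference of DMD minus WT was −4.75 for Prss23 (adjusted p = 8.36e-06), −4.86 for Lbp (0.000134), −3.41 for Abi3bp (0.0152), −3.68 for Cp (0.017), −3.29 for Cytl1 (0.019) and −3.46 for Cysltr1 (0.0265). With 1000 to 4000 UMIs, and likewise after the purity filter, Prss23 alone of the 6 was called (−5.46 and −3.68, edgeR adjusted p = 0.0118 and 0.000391). The other endothelial barcodes held more of these transcripts in the libraries labelled DMD, for example 94.6 and 81.2 CPM of Prss23 in TA and EOM beside 2.63 and 6.94 CPM in those labelled WT. The share of other endothelial barcodes with a Plvap UMI was 19.1% and 5.39% in the libraries labelled DMD and 1.58% and 2.35% in those labelled WT, and its part in the result was not tested.

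By muscle, the member difference of Egr1 was lower in EOM by 2.27 on the log2 scale (interaction value −2.274, edgeR adjusted p = 9.9e-05), that of Fos by 1.94 (−1.941, 0.00023) and that of Atf3 by 1.84 (−1.844, 0.0305). None of the 3 was called with 1000 to 4000 UMIs (−1.80, −2.25 and −1.31, edgeR adjusted p = 0.944 for each), and Atf3 was not called after the purity filter (0.0616). Fos stood at 3118 and 5152 CPM in TA members against 2214 and 5124 in the others, and at 1490 and 1696 CPM in EOM members against 2026 and 4649, labelled WT first. EOM had 5 members in the library labelled WT and 11 in that labelled DMD.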

How the results depend on the processing

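No paired analysis was possible because each muscle and label has 1 library and the replicate numbers carry no pairing; the block used is the library. Without that block (no replicate block) 19 genes were called higher and 38 lower. Leaving out 1 library gave 63 to 109 higher and 60 to 114 lower genes. With 1000 to 4000 UMIs 71 were higher (89 lower), and with DESeq2 61 were lower beside 104 higher, which moved the split from 109 and 132. Of 310 results of the 24 named genes under the alternatives, 300 kept their direction and call, 10 lost the call (9 without the block, 1 without TA labelled DMD) and 0 reversed.

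The share of endothelial barcodes that were members in TA labelled DMD was 16.8% for barcodes of 1000 or more UMIs and no more than 10% mitochondrial ones, 7.31% with a 2% endothelial gate, 14.4% and 6.75% with 2 and 5 UMIs in place of 3, 4.40% without Plvap, 7.77% after the purity filter and 13.0% after thinning. Without Plvap the share was 0.196% in TA labelled WT and 0.528% in EOM labelled DMD, and with 5 UMIs 0.880% in the latter. TA labelled DMD had the highest share under each of these.

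The label term called 15 genes with no filter, 4 with DESeq2 and 4 without barcodes of over 1% haemoglobin. The muscle term called 5 with DESeq2, 43 without Vcam1 in the venous threshold and 5 without those barcodes. The label interaction called 6 after the purity filter and 1 with 1000 to 4000 UMIs, and the muscle interaction 10 without those barcodes and 3 with 1000 to 4000 UMIs. The haemoglobin step and all interaction tests were chosen after seeing the data. The gene contrasts of 1 library against 1 and their alternatives were not run. Leaving out a library from the additive fit leaves no residual degree of freedom. With 5 to 13 members in 3 libraries, differences there below several UMIs were not detectable.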
